A study of Xenopus laevis with 72 samples.

Results

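The African clawed frog Xenopus laevis is an allotetraploid: a hybridisation between ancestral species left it with an L and an S subgenome, and many genes are present as a pair of homeologs, an L copy and an S copy. The early embryo lives on RNA that the mother loaded into the egg. Zygotic genome activation (ZGA) then switches on the embryo's own genes while maternal RNA is removed, and a homeolog that was absent from the egg can only appear through new transcription. Cxxc1 and Kmt2b belong to complexes that methylate lysine 4 of histone H3 (H3K4) and carry a CXXC domain that binds unmethylated CpG.

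The pairs described here are the 100 most abundant ones in which a single copy supplied almost all the RNA at 5.5 hours post fertilization. A gene entry was paired when its name ended in .L or .S, its stem was the same as that of the other copy, and each name occurred once in the tables, which gave 7513 pairs among 39668 entries. A copy counted as silent when its mean was below 0.5 TPM (the usual length-corrected share of the RNA of a library) in non-injected embryos at 5.5 hours post fertilization (hpf), in each of the 2 frogs. By this rule 1080 pairs had 1 silent copy, 1603 had both copies silent and 4830 had neither. The 1080 pairs were ranked by the mean of the other, expressed copy at 5.5 hpf, taking the lower of the 2 frogs, and the first 100 pairs were kept.

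The embryos were wild-type and made up 4 groups. The Cxxc1 MO and Kmt2b MO embryos received, as 1-cell embryos, 9.2 nl of a 1 mM antisense morpholino that blocks translation of both homeologs of cxxc1 or kmt2b. The Ctrl MO embryos received a control morpholino in the same way, and the NI Ctrl embryos were not injected. Embryos were collected at 5.5, 6.5 and 7.5 hpf, when they are blastulae passing through ZGA, in 2 biological replicates from different frogs. Every group, time point and biological replicate had 3 sets of 3 whole embryos, each sequenced as 1 library, which made 72 libraries. Since a morpholino acts on translation, the RNA level of its target is no check of the knockdown.

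In each library 18133 to 20351 entries reached 1 TPM, and no library was left out. The depth behind a value is unknown, since TPM holds no counts of reads, and intervals from counting cannot be given. The summed TPM of a list of 26 early zygotic entries was 7.52 to 32.3 at 5.5 hpf, 59.2 to 285 at 6.5 hpf and 291 to 1243 at 7.5 hpf. Germ plasm and maternal entries summed to 1597 to 4047 TPM and skin or follicle entries to 3.48 to 11.9 TPM over all times. Entries of blood cells of the mother stayed at a sum of 0.147 to 1.59 TPM, and those of sperm and testis at 16.8 to 60.8 TPM. Whole embryos were sampled, so fewer cells with a transcript and less of it in each cell cannot be told apart. The 3 libraries of a group and biological replicate came from 1 frog, so tests within a biological replicate measure the spread between sets of embryos.

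The S copy was the silent one more often among these pairs. The pairs were chosen by the TPM of both copies in NI Ctrl embryos at 5.5 hpf, so the counts and levels of that group and time describe the choice. In 62 of the 100 pairs the S copy was silent and in 38 the L copy, with 31 and 19 in ranks 1 to 50 and again 31 and 19 in ranks 51 to 100. Below rank 100 the expressed copy had 17.2 TPM or less, with a median of 0.787 TPM, so many of those copies lay near the limit of 0.5 TPM. In that set the S copy was silent in 529 of 980 pairs (54.0%) and the L copy in 451 (46.0%). No test was made of these counts. The expressed copies of the 100 pairs lay between 17.2 and 138.8 TPM (median 32.0 TPM), whereas 43.1% of all 37345 entries named once were below 0.5 TPM in the same libraries.

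**Figure D1:**
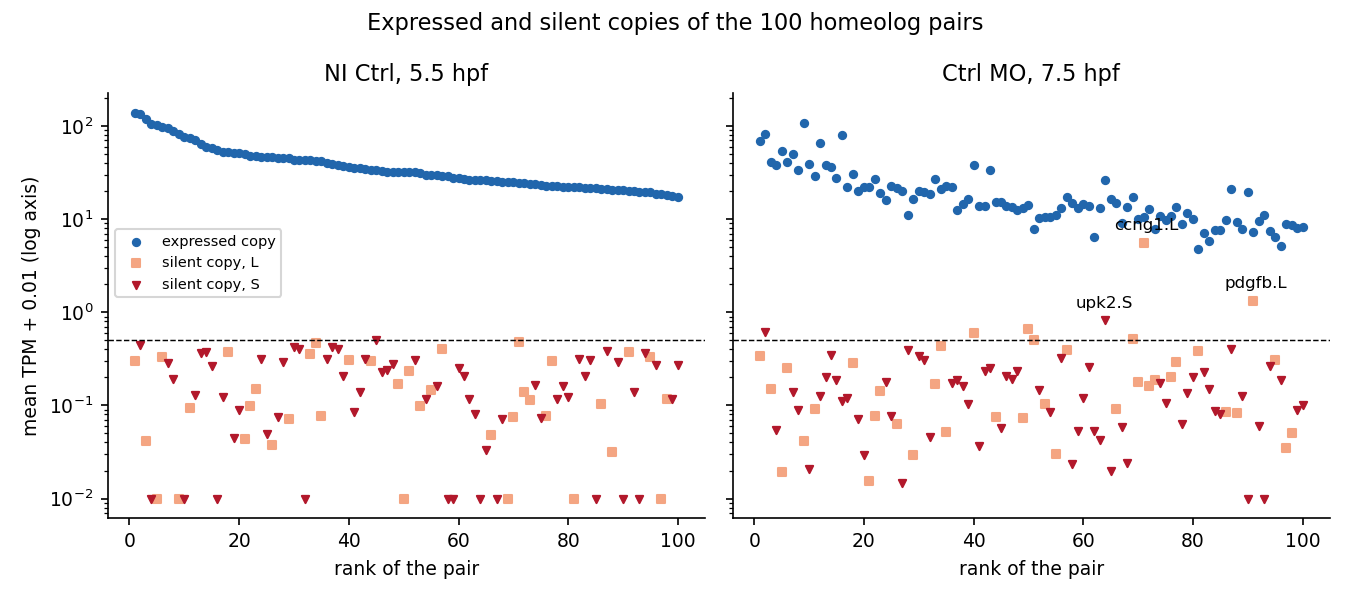
The 100 pairs by rank, with the mean TPM of the expressed copy (circles, lower of the 2 biological replicates) and of the silent copy (squares for L, triangles for S, higher of the 2) on a log axis after adding 0.01 TPM. The left panel holds the NI Ctrl libraries at 5.5 hpf that chose the pairs and the right panel the Ctrl MO libraries at 7.5 hpf; the dashed line marks 0.5 TPM, and ccng1.L, pdgfb.L and upk2.S are the silent copies highest above it at 7.5 hpf.

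The 10 pairs with the highest rank held 5 L-silent and 5 S-silent pairs. Those with a silent L copy are tpr (a nuclear pore basket protein, rank 1), socs1 (an inhibitor of cytokine signalling, rank 3), hnrnpul1 (an RNA-binding protein, rank 5), pus1 (a pseudouridine synthase, rank 6) and ubl5 (a ubiquitin-like protein of the spliceosome, rank 9). Over the 24 libraries at 5.5 hpf, tpr.S had 128.2, 147.9 and 170.1 TPM (lowest, median and highest library) and tpr.L had 0.151, 0.323 and 0.700 TPM. In the same libraries socs1.S had 111, 138 and 169 TPM, and socs1.L was listed at 0 in 16 of the 24 and reached 0.356 TPM. Among these 5 silent L copies ubl5.L was detected least often. It was listed at 0 in 23 of the 24 libraries, while ubl5.S had 69.5 to 97.8 TPM.

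The pairs of these ranks with a silent S copy are lgals3 (a galectin that binds beta-galactosides, rank 2), asf1b (a histone chaperone, rank 4), pld3 (a lysosomal member of the phospholipase D family, rank 7), ppp2r3b (a regulatory subunit of protein phosphatase 2A, rank 8) and pkp2 (a plakophilin of desmosomes, rank 10). At 5.5 hpf lgals3.L had 128.2, 150.3 and 186 TPM (lowest, median and highest of 24 libraries), and lgals3.S had 0, 0.341 and 0.952 TPM. The copy pkp2.S was listed at 0 in 23 of the 24 libraries, against 67.4 to 98.9 TPM for pkp2.L. At 5.5 hpf none of the 10 silent copies in these pairs overlapped its partner in any library. The choice of a copy below 0.5 TPM beside the most abundant partners at that time favours this, so it is no separate result.

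The limits of the selection fall in a continuous range of values. Ranks 98 to 100 were acot2, nbl1 and nt5dc1, with 18.0, 17.7 and 17.2 TPM for the expressed copy, and the next pairs, ddah1, rabgap1 and rhbdl1, had 17.2, 16.6 and 16.6 TPM. Nearest to the limit of silence were tyro3.S at 0.491 TPM and ccng1.L at 0.465 TPM in the higher of the 2 biological replicates, and just outside it were lyrm4.S at 0.501 TPM and rela.S at 0.515 TPM. The value of tyro3.S, a copy of a receptor tyrosine kinase, came from single libraries: NI Ctrl at 5.5 hpf had 0, 1.44 and 0.0322 TPM in biological replicate 1 and 0.0493, 0 and 1.17 TPM in biological replicate 2. At 7.5 hpf no library held more than 0.0889 TPM of it. By contrast, ccng1.L was above 0 in all 24 libraries at 5.5 hpf, between 0.0570 and 0.827 TPM.

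Sorted by what the genes are known for, mostly from mammals, the pairs fall into broad groups that were written after the members were known and carry no test. The 19 pairs of chromatin, transcription, DNA repair and RNA (among them tpr, asf1b, gtf2b, parp2 and mbd2) had 13 L-silent and 6 S-silent copies. Of 18 pairs of the secretory pathway, cytoskeleton and adhesion (among them lgals3, pkp2, vps11 and derl2), 3 were L-silent and 15 S-silent. The 21 pairs of signalling, receptors and the cell cycle (among them socs1, pdgfb, tyro3 and ccng1) were 9 and 12, the 20 pairs of metabolic and redox enzymes 8 and 12, and the 9 pairs of channels and transporters 2 and 7. The remaining 13 pairs were 3 L-silent and 10 S-silent.

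Both copies of every pair had a named entry by the rule of selection, so their presence in an annotation is no result. In the RefSeq annotation of assembly Xenopus_laevis_v10.1, 98 silent and 99 expressed copies were found by symbol, and 97 silent copies were listed as protein-coding. The exception among those found was neil3.S, a copy of a DNA glycosylase gene, which was listed as a long noncoding RNA. The gene span of the silent copy was shorter than that of its partner in 55 of 98 pairs (56.1%), with medians of 19.8 kb for silent and 22.8 kb for expressed copies. Below rank 100 the silent copy was shorter in 56.6% of pairs, and in pairs with neither copy silent the S copy was shorter than the L copy in 50.9%.

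A few silent copies were much reduced in the annotation. The silent span was less than 0.5 of the expressed one in 10 of 98 pairs, and the reverse held in 3. Below rank 100 these counts were 63 and 23 of 967 pairs. The extreme among the 100 pairs was kcnj5, a gene for a potassium channel subunit, with 788 bases annotated for kcnj5.S and 52891 bases for kcnj5.L. The annotated tpr.L spans 26680 bases on chromosome 4L, against 103215 bases for tpr.S, and upk2.S spans 10584 bases, against 27184 for upk2.L. A short or shared transcript model can move reads between near-identical copies, so the level of a silent copy is an estimate of how reads were divided.

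By chromosome, 98 of the pairs could be placed on the 9 pairs of homeologous chromosomes. Chromosome pair 3 held the most members, 9 L-silent and 8 S-silent (beside 934 of all 7513 homeolog pairs), and pair 4 held 7 and 9 (beside 871). On pair 2 the L copy was silent in 1 pair and the S copy in 9 (beside 958), and on pair 7 in 2 and 8 (beside 604). These are counts of few genes and were not tested.

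**Figure D2:**
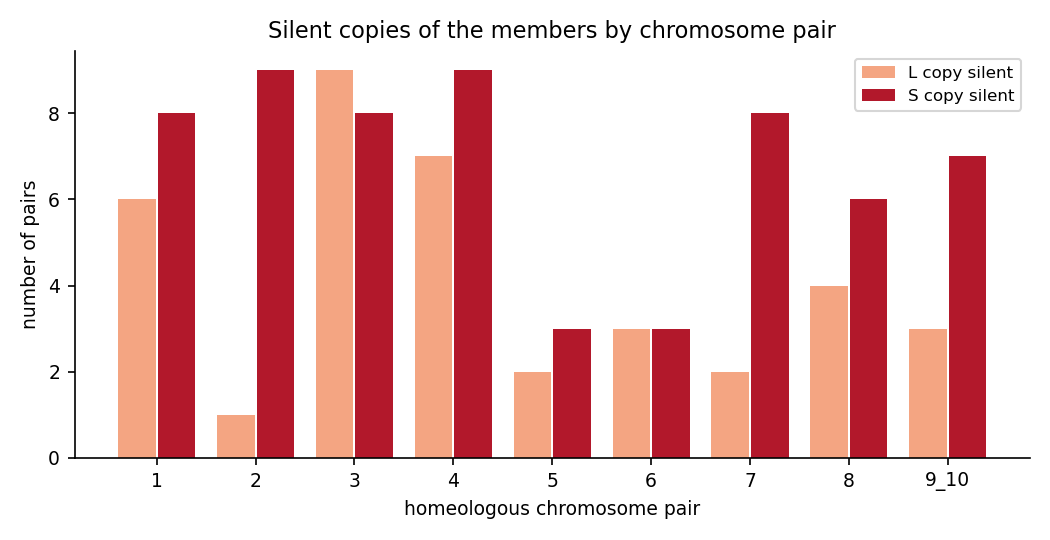
Number of the 100 pairs with a silent L copy (light bars) and a silent S copy (dark bars) on each pair of homeologous chromosomes, with chromosomes 9 and 10 counted as 9_10. The bars are furthest apart on pair 2, with 1 L-silent and 9 S-silent pairs.

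The silent copies also had little RNA in the injected embryos, whose libraries the selection had not used. These embryos came from the same frogs as the NI Ctrl embryos, so low values at 5.5 hpf are favoured by the choice. In NI Ctrl embryos at 5.5 hpf 43.1% of all entries named once were below 0.5 TPM. No such share is given here for the injected groups. At 5.5 hpf, 94 of the 100 stayed below 0.5 TPM in both biological replicates in Cxxc1 MO embryos, 96 in Kmt2b MO embryos and 92 in Ctrl MO embryos. At 5.5 hpf 64 of them were below 0.5 TPM in all 18 injected libraries. No silent copy was listed at 0 in all 72 libraries, 52 were below 0.5 TPM in every library, and 79 of the 7200 values (1.1%) reached 1 TPM. In no group, at no time point, did the mean of a silent copy exceed that of its expressed partner.

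Over the 2 hours to 7.5 hpf nearly all silent copies stayed low. Their sum over the 100 genes was 10.2 to 17.9 TPM per library at 5.5 hpf and 12.2 to 24.5 TPM at 7.5 hpf, and 9.21 to 15.4 TPM at 7.5 hpf when ccng1.L was left out. The sum of the expressed copies was 4000 to 5017 TPM at 5.5 hpf and 1671 to 2753 TPM at 7.5 hpf. A mean of at least 1 TPM in both biological replicates at 7.5 hpf was reached by 2 silent copies in Cxxc1 MO, 1 in Kmt2b MO, 2 in Ctrl MO and 2 in NI Ctrl embryos. Among the 980 silent copies below rank 100 these numbers were 35, 32, 46 and 45 (3.57%, 3.27%, 4.69% and 4.59%). Of the 3206 copies in pairs with both silent, 2.09%, 1.81%, 2.34% and 2.46% reached it, close to the shares of the 100 silent copies.

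To test the rise in each injected group, log2(TPM + 1) was compared between 7.5 and 5.5 hpf with limma, and a rise was called when the log2 change was at least 1 with an adjusted p under 0.05 in each biological replicate. A single silent copy, ccng1.L, met this in all 3 injected groups. Of all 34655 entries tested, 1.9% met it with Cxxc1 MO, 1.84% with Kmt2b MO and 2.14% with Ctrl MO, so 1 of 100 was no more than the share among all entries. Of the copies in pairs with both copies silent, 1.90%, 1.62% and 2.18% met it in these groups, and of the silent copies below rank 100, 3.27%, 2.65% and 3.67%. Changes on this scale understate those of low entries, since 1 TPM is added before the logarithm.

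The gene ccng1 encodes cyclin G1, known in mammals as a target of p53, and its pair was ranked on 24.4 TPM of the expressed ccng1.S. The silent copy lies on chromosome 3L at 30368144 to 30378812 and the expressed copy on chromosome 3S at 18531141 to 18544055 (Xenopus_laevis_v10.1, RefSeq). At 5.5 hpf ccng1.L had 0.342, 0.257 and 0.130 TPM in the Cxxc1 MO libraries of biological replicate 1 and 0.434, 0.177 and 0.399 TPM in those of biological replicate 2. In Kmt2b MO libraries it had 0.0799, 0.404 and 0.138 TPM and then 0.396, 0.170 and 0.337 TPM, and in Ctrl MO libraries 0.432, 0.304 and 0.827 TPM and then 0.0570, 0.259 and 0.577 TPM. All 4 groups thus overlapped below 1 TPM, with NI Ctrl at 0.166 to 0.585 TPM.

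At 6.5 hpf, among the injected groups, ccng1.L was clear of its range at 5.5 hpf in biological replicate 1 only. There it had 0.999 to 1.23 TPM in Cxxc1 MO, 0.717 to 1.75 TPM in Kmt2b MO and 1.15 to 1.22 TPM in Ctrl MO libraries. In biological replicate 2 it had 0.208 to 0.399 TPM, 0.379 to 0.778 TPM and 0.510 to 1.03 TPM in the same groups, overlapping its range at 5.5 hpf in each. These intermediate values were not tested.

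At 7.5 hpf ccng1.L was above 1 TPM in all 24 libraries. The Cxxc1 MO libraries had 5.34, 5.74 and 7.14 TPM in biological replicate 1 and 4.30, 2.94 and 5.03 TPM in biological replicate 2. Those of Kmt2b MO had 7.25, 7.79 and 6.15 TPM and then 2.49, 5.39 and 5.01 TPM. Ctrl MO libraries had 5.86, 7.00 and 3.89 TPM and then 3.73, 1.68 and 3.79 TPM, and NI Ctrl libraries 9.81, 10.01 and 8.66 TPM and then 6.51, 1.92 and 1.57 TPM. In every group and biological replicate the 3 libraries at 7.5 hpf lay above the 3 at 5.5 hpf. The mean of biological replicate 2 was the lower one in each group.

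The log2 change of ccng1.L from 5.5 to 7.5 hpf was 2.50 ± 0.20 and 1.91 ± 0.31 in Cxxc1 MO embryos (SE, biological replicates 1 and 2; limma adjusted p = 1.3e-11 and 4.71e-06). For Kmt2b MO it was 2.74 ± 0.20 and 1.98 ± 0.31 (3.46e-12 and 2.91e-06 by the same test), and in Ctrl MO embryos 2.1 ± 0.20 and 1.62 ± 0.31 (3.47e-10 and 5.09e-05). In NI Ctrl embryos, whose libraries chose the pair, it was 2.84 and 1.59 and was not tested. The rise was thus present in both knockdowns as well as in control embryos. Centring each library on its median left the direction the same. That outcome was fixed in advance, since the median fell between these times and centring adds its fall to every change.

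The knockdowns did not differ detectably from the control in this rise, and no copy of the 100 pairs did in its change with time, beside 0% (larger) and 0.0027% (smaller) of all entries for Cxxc1 MO and 0% and 0.054% for Kmt2b MO. Over all 72 libraries, the change of ccng1.L in Cxxc1 MO embryos exceeded that in Ctrl MO embryos by 0.35 on the log2 scale (95% interval -0.25 to 0.94, limma adjusted p = 1), and that in Kmt2b MO embryos by 0.50 (-0.09 to 1.1, adjusted p = 1). At 7.5 hpf alone, the differences from Ctrl MO were 0.24 (-0.28 to 0.75, adjusted p = 1) for Cxxc1 MO and 0.35 (-0.17 to 0.87, adjusted p = 0.827) for Kmt2b MO. Each interval spans 0 and leaves room for a rise larger than in the control.

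As ccng1.L rose, ccng1.S fell, and the makeup of the pair shifted. At 7.5 hpf ccng1.S had 16.9, 19.6 and 19.9 TPM and then 11.8, 8.96 and 13.9 TPM in Cxxc1 MO embryos, 17.1, 17.6 and 18.0 TPM and then 11.9, 11.5 and 10.2 TPM in Kmt2b MO embryos, and 20.0, 20.7 and 18.6 TPM and then 11.0, 8.77 and 12.1 TPM in Ctrl MO embryos. At 5.5 hpf its 24 libraries had held 22.2 to 32.5 TPM, so no library of ccng1.S at 7.5 hpf reached that range. The log2 change was -0.56 and -1.18 with Cxxc1 MO, -0.60 and -1.37 with Kmt2b MO and -0.53 and -1.35 with Ctrl MO (limma adjusted p = 1.11e-05 or less in each). That fall was not particular to ccng1.S. The median over entries with a mean of at least 1 TPM was -0.69 and -1.16, -0.63 and -1.11, and -0.64 and -1.10 in the same order. The L copy supplied 24.3% ± 1.9 and 26.0% ± 1.1 of the pair's TPM with Cxxc1 MO, 28.7% ± 2.8 and 27.4% ± 8.8 with Kmt2b MO and 21.8% ± 4.1 and 21.8% ± 5.0 with Ctrl MO at 7.5 hpf (SD, n = 3 libraries each). At 5.5 hpf it had supplied 0.746% to 1.80% in these groups as a mean of 3 libraries. Over the 100 pairs the median share of the silent copy at 7.5 hpf was 0.412% to 0.538%, depending on group and biological replicate.

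**Figure D3:**
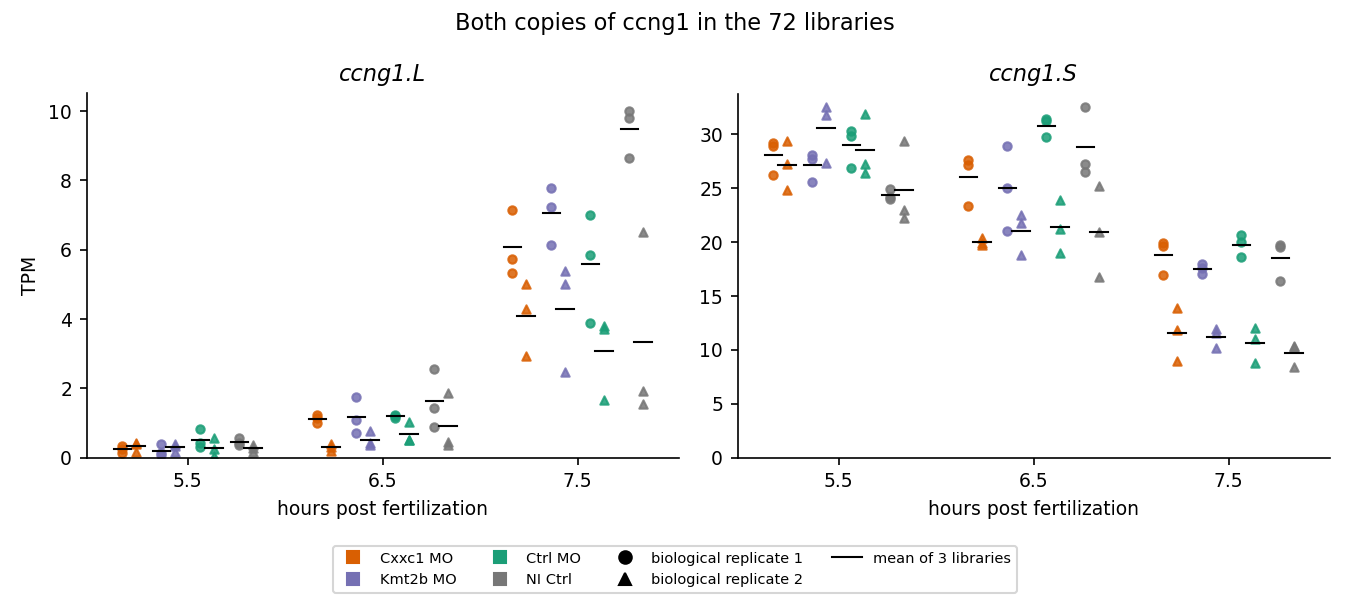
TPM of ccng1.L (left) and ccng1.S (right) in each of the 72 libraries by hours post fertilization; colours are the 4 groups, circles and triangles the biological replicates, and black bars the mean of 3 libraries. The silent L copy lies below 1 TPM at 5.5 hpf and at 1.57 to 10.01 TPM at 7.5 hpf in all 4 groups, while the S copy falls to 8.46 to 20.7 TPM.

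Without the requirement of a log2 change of at least 1, a few more silent copies rose by small amounts. They numbered 3 in Cxxc1 MO (ccng1.L, pdgfb.L and upk2.S), 3 in Kmt2b MO (ccng1.L, pdgfb.L and cyp27c1.L) and 4 in Ctrl MO embryos (ccng1.L, pdgfb.L, upk2.S and nxpe3l.1.L), named after their values were seen. Over all entries 4.05%, 3.96% and 4.8% rose in this sense in these groups. Small falls were called for 1 silent copy in Cxxc1 MO (tecpr1.S), 4 in Kmt2b MO (hipk2.S, lrp4.S, crybg1.S and entrep1.S) and 4 in Ctrl MO embryos (hipk2.S, ano1.S, twf1.L and tmprss4.S), against 42.8%, 41.4% and 41.7% of all entries. A copy that starts near 0 has little room to fall.

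The gene pdgfb encodes a platelet-derived growth factor ligand. At 7.5 hpf its silent copy pdgfb.L had 0.510, 1.53 and 1.08 TPM and then 1.71, 1.24 and 1.56 TPM in Cxxc1 MO embryos of biological replicates 1 and 2. In Kmt2b MO embryos it had 0.290, 1.03 and 0.432 TPM and then 2.45, 1.89 and 1.29 TPM, and in Ctrl MO embryos 0.881, 1.39 and 1.22 TPM and then 0.961, 1.80 and 1.19 TPM. The 24 libraries at 5.5 hpf had held 0 to 0.686 TPM, which overlaps the Cxxc1 MO and Kmt2b MO libraries of biological replicate 1 but not the Ctrl MO libraries at 7.5 hpf. The log2 change was 0.77 and 0.90 in Cxxc1 MO (limma adjusted p = 0.000271 and 5.77e-05), 0.47 and 1.15 in Kmt2b MO (adjusted p = 0.0206 and 1.83e-06) and 0.86 and 0.69 in Ctrl MO embryos (adjusted p = 7.76e-05 and 0.00129). Its partner pdgfb.S fell in all 3 groups, with a log2 change of -1.35 and -1.91 with Cxxc1 MO, -1.07 and -1.85 with Kmt2b MO and -1.24 and -1.97 with Ctrl MO.

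The silent copies upk2.S and cyp27c1.L were listed at 0 in nearly all libraries at 5.5 hpf and were detected in all at 7.5 hpf. The gene upk2 encodes a uroplakin, a membrane protein of the urinary tract lining, and cyp27c1 a cytochrome P450 that converts vitamin A1 to vitamin A2. At 5.5 hpf upk2.S was above 0 in 2 of 24 libraries and cyp27c1.L in 1, at 6.5 hpf in 13 and 9, and at 7.5 hpf both were above 0 in all 24. Another 2 silent copies gained 12 or more libraries, nxpe3l.1.L (above 0 in 7 libraries at 5.5 hpf and 23 at 7.5 hpf) and cd81.L (10 and 22), and none lost as many. These counts include the NI Ctrl libraries at 5.5 hpf, whose low values chose the silent copies. Over the 18 injected libraries of each time, 56 of the 100 silent copies were above 0 in more libraries at 7.5 than at 5.5 hpf, 12 in fewer and 32 in the same number. Of the 980 silent copies below rank 100, 60.5% were above 0 in more and 17.2% in fewer, and of the copies in pairs with both silent 61.4% and 19.7%, so a gain in detection was about as frequent among other low copies.

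The level of upk2.S at 7.5 hpf differed between libraries more than that of ccng1.L. It had 0.0962, 0.224 and 0.567 TPM and then 0.378, 0.610 and 1.22 TPM in Cxxc1 MO embryos. In Kmt2b MO embryos it had 0.101, 0.229 and 0.0893 TPM and then 0.218, 0.334 and 0.410 TPM, and in Ctrl MO embryos 0.554, 0.675 and 0.813 TPM and then 0.568, 0.556 and 1.31 TPM. Every Kmt2b MO library of upk2.S thus lay below every Ctrl MO library, while the Cxxc1 MO libraries overlapped both. The difference between Kmt2b MO and Ctrl MO was -0.50 on the log2 scale (95% interval -0.83 to -0.16) and did not pass the threshold over all entries (limma adjusted p = 0.224), nor did the difference between their changes from 5.5 hpf (-0.42, adjusted p = 0.978). NI Ctrl libraries spread over the whole range, with 0.0690, 0.229 and 0.612 TPM and then 2.1, 1.1 and 0.933 TPM.

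For cyp27c1.L the Kmt2b MO libraries had the highest mean of the 4 groups at 7.5 hpf in both biological replicates (0.852 and 0.241 TPM). At 7.5 hpf they had 0.670, 0.822 and 1.06 TPM and then 0.107, 0.438 and 0.179 TPM, against 0.635, 0.807 and 0.0605 TPM and then 0.376, 0.0317 and 0.110 TPM in Ctrl MO embryos. Cxxc1 MO libraries had 0.266, 0.218 and 0.0794 TPM and then 0.0447, 0.0515 and 0.154 TPM. The groups overlapped, and neither the difference between Kmt2b MO and Ctrl MO (0.21, limma adjusted p = 0.824) nor that between Cxxc1 MO and Ctrl MO (-0.20, adjusted p = 0.979) passed the threshold.

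**Figure D4:**
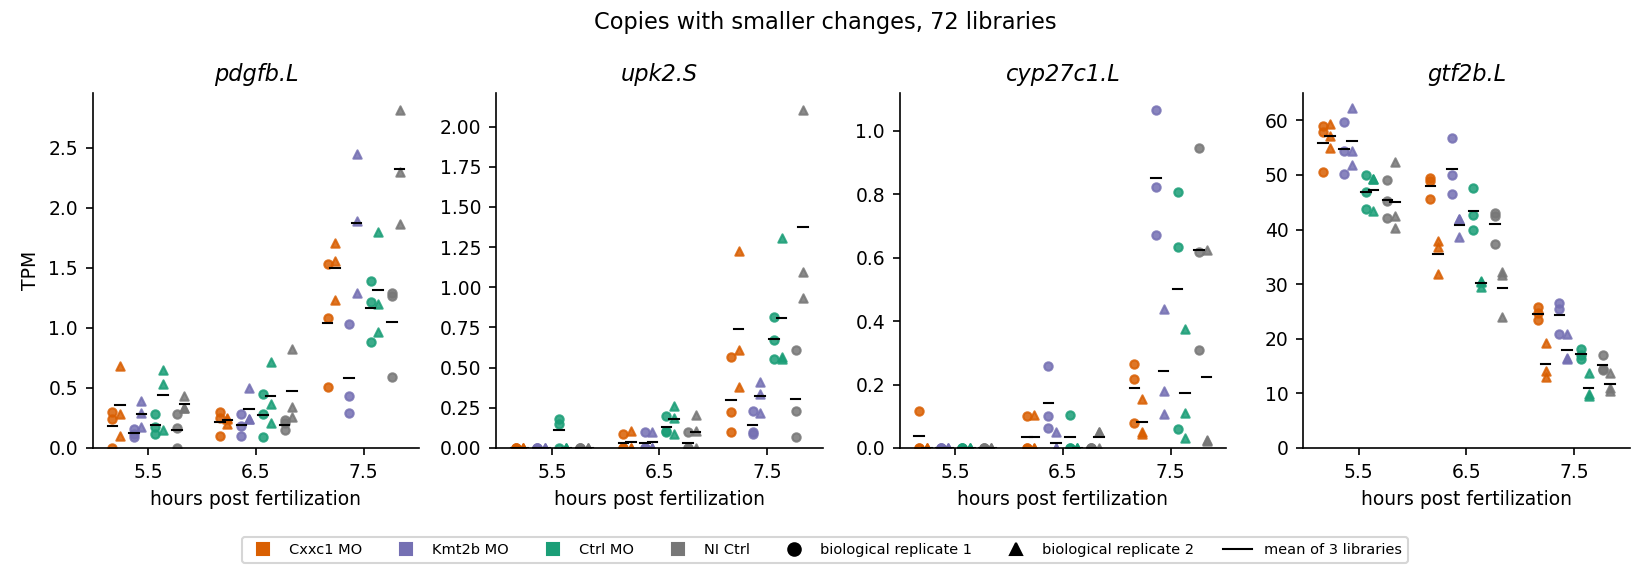
TPM in each of the 72 libraries of the silent copies pdgfb.L, upk2.S and cyp27c1.L and of the expressed copy gtf2b.L, by hours post fertilization; colours are the 4 groups, circles and triangles the biological replicates, black bars the mean of 3 libraries. The silent copies stay below 1 TPM until 6.5 hpf and reach at most 2.81, 2.1 and 1.06 TPM, and gtf2b.L holds 40.3 to 62.3 TPM at 5.5 hpf and 9.53 to 26.6 TPM at 7.5 hpf, with the means of both knockdowns above those of the controls.

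The expressed copies fell almost as a group. Of the 100, 91 fell with Cxxc1 MO, 90 with Kmt2b MO and 91 with Ctrl MO in both biological replicates (limma adjusted p under 0.05), against 42.8%, 41.4% and 41.7% of all entries. Many of those entries were near 0 at the start. The expressed copies were kept for high TPM in NI Ctrl embryos of the same frogs at the start, which favours a fall from there. Of the 9660 copies in pairs with neither copy silent, 84.4%, 82.3% and 82.9% fell. Those copies were not ranked by TPM and were not matched to the expressed copies for level. Whether the expressed copies fell more often than other copies of their level was therefore not tested. The median log2 change of the expressed copies was -0.85 and -1.40 in Cxxc1 MO (biological replicates 1 and 2), -0.81 and -1.34 in Kmt2b MO and -0.78 and -1.35 in Ctrl MO embryos. Copies in pairs with neither silent had -0.80 and -1.29, -0.73 and -1.26, and -0.76 and -1.23 in the same order.

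TPM is a share of the RNA in a library, so a fall in TPM need not be a fall in molecules. Over entries with a mean of at least 1 TPM the median log2 change was -0.69 and -1.16 with Cxxc1 MO, -0.63 and -1.11 with Kmt2b MO and -0.64 and -1.1 with Ctrl MO. When each library was centred on that median, 62, 64 and 58 of the 100 expressed copies fell and 7 rose in each group, beside 51.8%, 50.5% and 51.9% of the copies in pairs with neither silent falling and 8.98%, 9.51% and 9.25% rising. Here too the copies in pairs with neither silent were not matched to the expressed copies for level. Centring takes the fall of the median out of every entry. A smaller fall of the expressed copies relative to the median entry than in TPM thus follows by construction.

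Falls of at least 2-fold (log2 change of -1 or less in both biological replicates) were called for 32 expressed copies with Cxxc1 MO, 22 with Kmt2b MO and 22 with Ctrl MO, against 11%, 7.83% and 9.36% of all entries. The shares over all entries are no like baseline. Entries below 0.5 TPM at 5.5 hpf, 43.1% of those named once in NI Ctrl, cannot fall that far on the log2(TPM + 1) scale. No such count is given here for the copies in pairs with neither copy silent. The largest in Ctrl MO embryos, named after the values were seen, was mcidas.S, a copy of a regulator of multiciliated cells, at -1.47 and -2.18. The change of mcidas.S was -1.53 and -1.96 in Cxxc1 MO and -1.19 and -1.91 in Kmt2b MO embryos. Among the highest ranks, socs1.S had 27.7 to 61.6 TPM over the 24 libraries at 7.5 hpf, below each of its values at 5.5 hpf (111 to 169 TPM). By comparison tpr.S kept 52.6 to 97.8 TPM at 7.5 hpf, against 128.2 to 170.1 TPM at 5.5 hpf.

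For a small number of expressed copies no fall was called. In all 3 injected groups these were ubl5.S, tmem230.L, ociad2.L, prdx4.S, akr7a2.L, upk2.L, gpx1.L and sft2d2.L, which include a peroxiredoxin (prdx4), a glutathione peroxidase (gpx1) and an aldo-keto reductase (akr7a2). A missed call is not a steady level. The mean of tmem230.L in Ctrl MO embryos was 67.4 and 90.3 TPM at 5.5 hpf in biological replicates 1 and 2 and 78.5 and 66.2 TPM at 7.5 hpf, and that of akr7a2.L was 41.5 and 39.5 TPM and then 35.8 and 33.3 TPM. The copy ociad2.L, of a gene for an OCIA domain protein, rose in Cxxc1 MO embryos (0.66 and 0.38 on the log2 scale, limma adjusted p = 1.29e-06 and 0.0018) and in Ctrl MO embryos (0.91 and 0.51, adjusted p = 5.78e-09 and 8.33e-05). With Kmt2b MO its change was 0.88 and 0.22, and biological replicate 2 missed the threshold (adjusted p = 0.0696). Without the third set of Cxxc1 MO the call in that group was lost, and without the second set of Kmt2b MO it was gained. For ubl5.S, a rise was called in Ctrl MO embryos (0.66 and 0.30, adjusted p = 9.23e-07 and 0.00316), and under either knockdown it passed in biological replicate 1 alone.

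Among the silent partners of these 8 copies, a small rise was called for upk2.S alone, in Cxxc1 MO and Ctrl MO embryos. The copy ociad2.S was listed at 0 in 17 and ubl5.L in 20 of the 24 libraries at 7.5 hpf, with at most 0.344 and 0.273 TPM. Their expressed partners held 65.6 to 119 TPM and 93.1 to 145 TPM in these libraries. Some other partners were above 0 in more libraries at 7.5 than at 5.5 hpf, with 22 against 14 for tmem230.S, 22 against 15 for akr7a2.S and 21 against 17 for prdx4.L. These counts include the NI Ctrl libraries at 5.5 hpf that chose the silent copies. Such a gain was also common, with 56 of the 100 silent copies gaining over the injected libraries alone. The mean of prdx4.L did not move 1 way in the injected groups. In Ctrl MO embryos it was 0.270 and 0.588 TPM at 7.5 hpf, against 0 and 0.431 TPM at 5.5 hpf. With Cxxc1 MO it was lower at 7.5 hpf in both biological replicates, at 0.199 and 0.426 TPM against 0.229 and 0.941 TPM. With Kmt2b MO it was 0.174 and 0.352 TPM against 0.344 and 0.116 TPM. In the pair upk2, upk2.L held 21.6 to 47.1 TPM at 7.5 hpf, overlapping its 20.5 to 47.4 TPM at 5.5 hpf, while upk2.S became detectable.

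**Figure D5:**
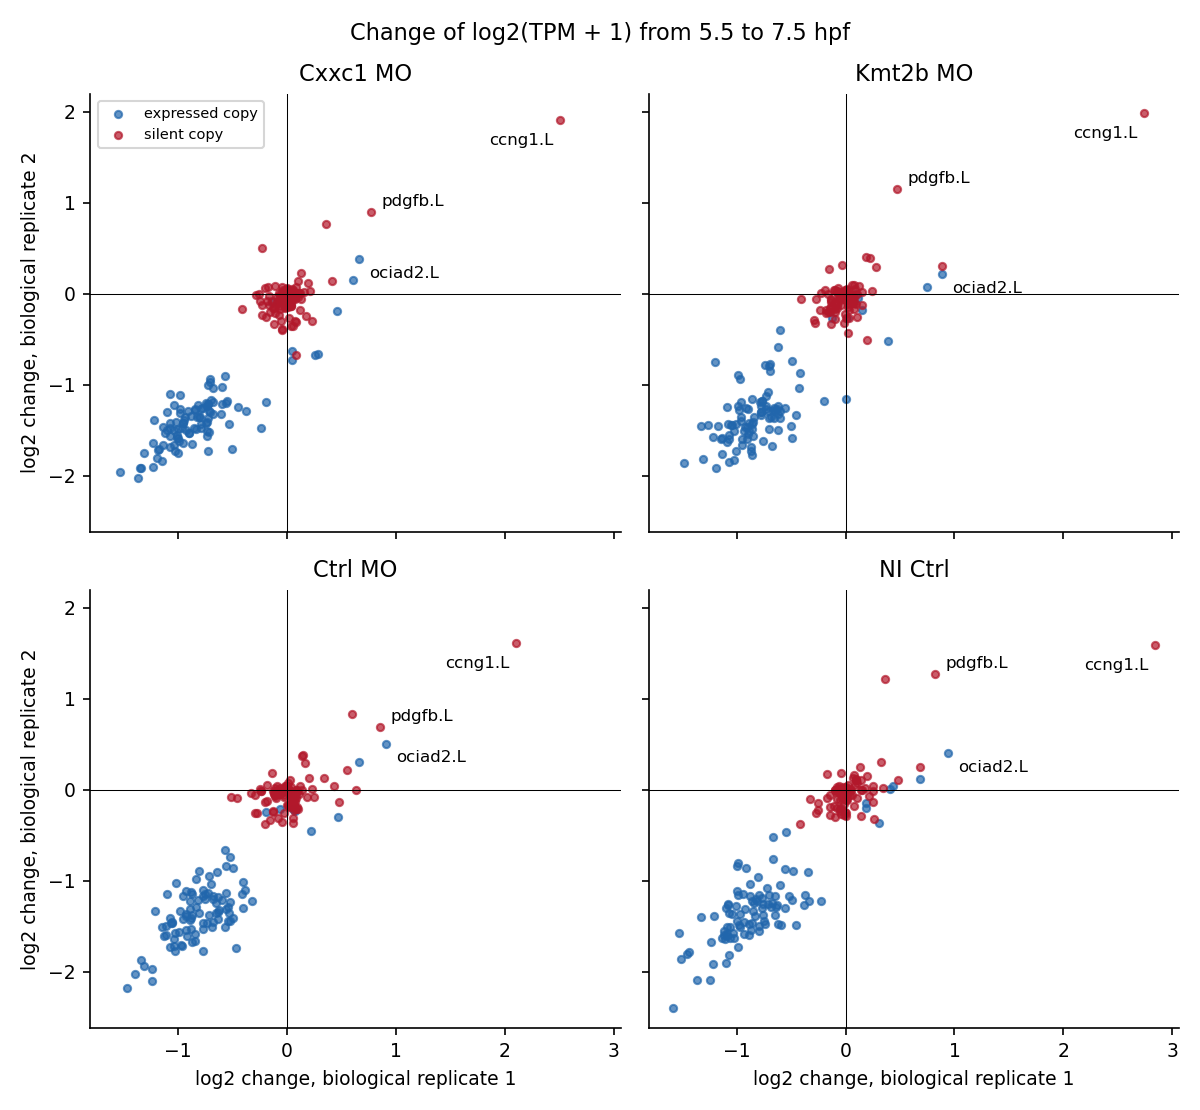
Change of log2(TPM + 1) from 5.5 to 7.5 hpf in biological replicate 1 (horizontal axis) and biological replicate 2 (vertical axis) for the silent copies (red) and the expressed copies (blue) of the 100 pairs, 1 panel for each group. Most silent copies gather near 0, with ccng1.L furthest out and pdgfb.L closer in. A few others, such as cyp27c1.L with Kmt2b MO and upk2.S in NI Ctrl, lie further from 0 in 1 biological replicate than in the other. Expressed copies lie around -0.8 and -1.3 apart from a few near or above 0 such as ociad2.L.

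Few copies of the pairs were called different between a knockdown and the control. At 7.5 hpf no silent copy passed the threshold between Cxxc1 MO or Kmt2b MO and Ctrl MO embryos in limma over 24 libraries with the biological replicate as a covariate, nor at 5.5 or 6.5 hpf. Over all 36132 entries, Cxxc1 MO embryos at 7.5 hpf had 0.111% higher and 0.108% lower, and Kmt2b MO embryos 0.465% and 0.529%, so fewer than 1 of 100 would be called at those shares. At 5.5 hpf the shares were 0.153% and 0.00898% for Cxxc1 MO and 0.284% and 0.0269% for Kmt2b MO, and at 6.5 hpf 0.234% and 0.131% for Cxxc1 MO and 0.675% and 0.309% for Kmt2b MO. At an unadjusted p under 0.05 in the same limma fit, Cxxc1 MO at 7.5 hpf had 3 silent copies higher and 6 lower, beside 2.76% and 3.47% of all entries, and Kmt2b MO had 1 higher and 6 lower, beside 4.79% and 3.95%. The 95% interval of a silent copy's difference at 7.5 hpf had a median half-width of 0.09 and reached 0.52 on the log2(TPM + 1) scale. Since 1 TPM is added, even a narrow interval leaves room for a large relative change of a copy near 0. Between Ctrl MO and NI Ctrl embryos at 7.5 hpf no copy of the pairs passed (0.00277% of all entries higher, 0.00277% lower), with 2 silent copies higher and 1 lower and 10 expressed copies higher and 2 lower at an unadjusted p under 0.05 in limma, beside 4.37% higher and 1.69% lower over all entries.

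A single expressed copy passed, gtf2b.L, which encodes the general transcription factor TFIIB. At 7.5 hpf it had 26.6, 20.8 and 25.5 TPM and then 20.9, 16.6 and 16.3 TPM in Kmt2b MO embryos of biological replicates 1 and 2, and 23.4, 24.7 and 25.8 TPM and then 14.1, 12.9 and 19.3 TPM in Cxxc1 MO embryos. Ctrl MO embryos had 18.1, 16.3 and 17.0 TPM and then 9.83, 9.53 and 13.7 TPM, and NI Ctrl embryos 17.1, 14.5 and 14.2 TPM and then 13.7, 11.0 and 10.4 TPM. Within each biological replicate the Kmt2b MO libraries lay above both kinds of control, and those of Cxxc1 MO did so in biological replicate 1. The difference from Ctrl MO was 0.57 ± 0.11 on the log2 scale in Kmt2b MO embryos (SE, 6 against 6 libraries, limma adjusted p = 0.00786) and 0.47 ± 0.11 in Cxxc1 MO embryos (adjusted p = 0.0756). In either biological replicate alone the Kmt2b MO difference was not called.

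The higher level of gtf2b.L was already visible before 7.5 hpf. At 5.5 hpf it had 50.5 to 59.3 TPM in Cxxc1 MO and 50.2 to 62.3 TPM in Kmt2b MO libraries, against 43.4 to 50.1 TPM in Ctrl MO libraries, with no overlap, although the differences of 0.26 and 0.23 missed the threshold (limma adjusted p = 0.157 and 0.223). At 6.5 hpf the difference was 0.18 in Cxxc1 MO (adjusted p = 0.362) and 0.33 with Kmt2b MO (adjusted p = 0.0203, with 0.675% of all entries higher at that time). From 5.5 to 7.5 hpf the copy fell in every injected group, by 1.15 and 1.84 in Cxxc1 MO, by 1.14 and 1.60 in Kmt2b MO and by 1.40 and 2.02 in Ctrl MO embryos on the log2 scale. The fall in Kmt2b MO embryos differed from that in Ctrl MO embryos by 0.34 (95% interval 0.03 to 0.65), which did not pass over all entries (limma adjusted p = 1). Its partner gtf2b.S stayed between 0 and 1.03 TPM at 7.5 hpf and did not differ by test between groups.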

How the data were processed

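The authors depleted ribosomal RNA, made strand-specific libraries and sequenced paired 50-base reads. Reads were pseudoaligned with kallisto 0.48 to transcripts of Xenbase assembly 10.1 by the authors, who summed isoforms per gene with tximport and deposited TPM for 39668 gene entries, 1 table per biological replicate. The authors tested counts with DESeq2 1.42.1; the deposited values are TPM, so counts were not tested here. TPM is relative within a library and homeologs are alike, so levels depend on how reads were divided between copies.

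Here log2(TPM + 1) was fitted in R 4.3.3 by limma 3.58.1 with a mean-variance trend in eBayes, with Benjamini-Hochberg adjustment over all entries and no filter beyond a value above 0 in any library. Changes with time used the 36 libraries of a biological replicate and were called only where both passed. Groups were compared over 24 libraries of a time point with biological replicate as covariate, and differences between changes over 72 libraries. NI Ctrl libraries at 5.5 hpf chose the pairs, so the change in NI Ctrl was not tested. Of 200 low entries given a log2 change of 1.5 in simulated data for Ctrl MO at 7.5 against 5.5 hpf, 190 (95%, of 37903 entries) and 193 (96.5%, of 38322 entries) were recovered in biological replicates 1 and 2, with 0 unchanged entries called. In the simulation all other entries were unchanged, the low entries kept the spread they had near 0, and each biological replicate was scored alone. It therefore does not give the recovery of a call in the data that needs both biological replicates.

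The members and lists were chosen with earlier results of these data known. Copies are named where they are the 5 most abundant L-silent or S-silent pairs, rise in Ctrl MO embryos or in a part of the injected groups, differ at 7.5 hpf, or lie at a limit of the rule; the text says where a copy was named for its values. Entries with a repeated name (2323) could not be paired. Gene symbols, spans and biotypes came from the RefSeq annotation, which matched 38926 entries. Promoters and proteins were not analysed here. Alternatives were a pseudocount of 0.1, a mean of at least 1 TPM, median centring, smaller fits, a replicate block, NI Ctrl as the control, protein-coding entries, other limits of the rule and leaving out libraries.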

Additional observations from a re-analysis of the deposited data

How the results depend on the processing

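Under every other rule tried the S copy was again the silent one more often, but most of these rules kept largely the same pairs. L-silent and S-silent pairs numbered 44 and 56 with a limit of 0.1 TPM, 37 and 63 with 1 TPM, and 40 and 60 with Ctrl MO in place of NI Ctrl. They numbered 19 and 31 in the top 50, 77 and 123 in the top 200, and 38 to 40 and 60 to 62 without 1 set of libraries. Pairs shared with the main set numbered 39 with a limit of 0.1 TPM, 69 with 1 TPM, 90 with Ctrl MO and 96 to 97 without 1 set. The top 50 lie within the main set, and the top 200 contain it. With 0.1 TPM the S-silent share of 56% was close to the 54.7% over all 1080 pairs with 1 silent copy by the main rule.

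Fits that changed a setting gave 48 values for the change of ccng1.L, 1 for each setting, injected group and biological replicate. All were positive, with a log2 change of 1.35 to 4.68 and a limma adjusted p of at most 0.00491. The number of silent copies called rising was 1 in each injected group; with a pseudocount of 0.1 it was 3 (Cxxc1 MO), 4 (Kmt2b MO) and 4 (Ctrl MO), 3, 3 and 4 with any positive change, 0 in each with a log2 change of at least 2, and 1 in each without one set. With median centring it was 2, 2 and 4, but centring lifts entries near 0 by construction. A pseudocount of 0.1 likewise enlarges the changes of entries near 0. The share of all entries called rising is not given here for either setting, so these counts have no baseline. Of the expressed copies, 58 in place of 91 fell in Ctrl MO with centring, and 7 rose in each group; with a mean of at least 1 TPM 1 rose in Kmt2b MO. Without one set the falls numbered 88 to 90 (Cxxc1 MO), 86 to 90 (Kmt2b MO) and 89 to 90 (Ctrl MO), and the rises 0 to 1 in Cxxc1 MO and Kmt2b MO and 2 in Ctrl MO. These fits of the expressed copies were chosen after seeing the data.

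No silent copy was called different between a knockdown and its control at 7.5 hpf in any of 84 counts from other limma fits. Not all of these could have called one. Only 3 silent copies ever reached a group mean of 1 TPM, so the fit with a mean of at least 1 TPM left out nearly all. The fits with NI Ctrl as the control made no comparison with Ctrl MO. Expressed copies higher in Cxxc1 MO, 0 as reported, numbered 1 (gtf2b.L) with a mean of at least 1 TPM, with centring, with NI Ctrl as the control and with protein-coding entries, and 0 to 1 when one library was left out (1 without biological replicate 2 set 3 of Ctrl MO or set 2 of Cxxc1 MO). Those higher in Kmt2b MO, 1 as reported, numbered 2 with a mean of at least 1 TPM or centring, 4 with NI Ctrl or protein-coding entries, 0 in either biological replicate alone, and 1 to 2 with one library left out. Those lower in Kmt2b MO, 0 as reported, numbered 1 (mccc2.S) with a mean of at least 1 TPM or protein-coding entries, 2 with centring, and 0 to 1 with one library left out. The shares of all entries called in these fits are not given here, so the counts have no baseline. The cause of the changed counts was not tested.

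Set numbers were the same in all groups but did not pair the samples: same-numbered libraries correlated at -0.14 to 0.32 in their deviations, and 9 of 78 pairs were above 0.1. With the set number as a replicate block, mccc2.S was called lower in Kmt2b MO (1 copy in place of 0), and no other count or call changed. TPM gives no depth, so values below 1 TPM may rest on few reads, and a copy listed at 0 may be present at a level these libraries do not show.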
